A study of Mus musculus with 9 samples.

Results

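The genes described here are 10 members of the integrated stress response, *Atf4*, *Atf5*, *Ddit3*, *Trib3*, *Chac1*, *Gdf15*, *Asns*, *Psat1*, *Phgdh* and *Shmt2*, out of 24571 gene symbols measured in embryonic mouse hearts. They were chosen by name, as transcripts tied to the factor ATF4 and read as a check for mitochondrial stress, and 9 of the 10 averaged 1 TPM or more over the libraries, which placed them among the 13682 genes tested. RNA was sequenced from hearts of C57BL/6N embryos at E18.5, late in gestation, in a line edited with CRISPR/Cas9 to carry the R567W missense allele of *Ctcf*, the gene of a zinc-finger protein that organises chromatin loops. There were 3 libraries from wild-type hearts, 3 from heterozygous hearts with 1 R567W allele and 3 from homozygous hearts with the R567W allele on both chromosomes. The allele is present in all cells of the body and not in the heart alone. Each heart was collected on its own, but whether embryos shared a litter is not stated, so the p-values measure the spread between these 9 libraries.

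The integrated stress response begins when a stress-sensing kinase phosphorylates the translation initiation factor eIF2. General protein synthesis then slows while the mRNA of *Atf4* is translated more, and ATF4 protein switches on genes for amino acid supply, tRNA charging and, under lasting stress, cell death. Damaged mitochondria reach such a kinase, HRI, through a relay in which the protease OMA1 cleaves DELE1, and in mouse hearts with faulty mitochondria the serine and one-carbon enzymes, *Trib3* and the secreted factors *Gdf15* and *Fgf21* are known targets. Because ATF4 is controlled mainly at translation, the transcripts of its targets carry the readout in RNA data.

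ATF4 and its C/EBP partners bind a composite element written TGATGNAA, so the promoters of the members were searched for these letters on both strands. The 10 genes had 13 promoters among the RefSeq promoters of GRCm38.p6, each holding 250 bases before and 50 bases after the start. The letters occurred in 3 of the 13 promoters (23.1%), belonging to 3 of the 10 genes, and in 1304 of all 32851 promoters (3.97%). The 3 matches are shown with 10 bases on either side, read 5′ to 3′ on the strand of the gene, with the matched letters in capitals.
Chac1: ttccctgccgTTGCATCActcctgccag
Trib3: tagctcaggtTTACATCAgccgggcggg
Asns: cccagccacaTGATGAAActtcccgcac
The *Chac1* window lies at chr2:119351039-119351066 on the plus strand, with the match on the opposite strand 193 bases before the start. The *Trib3* window lies at chr2:152344029-152344056 on the minus strand, with the match on the opposite strand 15 bases after the start. The *Asns* window lies at chr6:7693215-7693242 on the minus strand, with the match on the strand of the gene 23 bases before the start. Distances are counted from the start of the RefSeq promoter, which differs from the end of the GENCODE gene bounds given below. The *Asns* window lies inside those bounds, and the matched letters of *Trib3* and *Chac1* lie outside them. A match describes letters in these windows and not binding in the heart.

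Values were compared as log2(TPM + 1), where TPM is transcript abundance per length scaled to a common total, and a gene was called at a limma adjusted p under 0.05. None of the 9 tested members was called in any comparison. Over all genes, 46 of 13682 were called in homozygous against wild-type hearts (0.336%), 2 in heterozygous against wild-type hearts (0.0146%) and 6 in homozygous against heterozygous hearts (0.0439%). At an unadjusted limma p under 0.05, 2 of the 9 members, *Phgdh* and *Ddit3*, passed in homozygous against wild-type hearts. In heterozygous against wild-type hearts 0 passed, and in homozygous against heterozygous hearts 1, *Phgdh*. Of all genes tested, 3426 (25%), 940 (6.87%) and 978 (7.15%) passed in these comparisons. The first 2 comparisons share the wild-type libraries. The last shares the homozygous libraries with the first and the heterozygous libraries with the second, so none of them is independent.

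The median of all genes stood above 0 in each comparison, at a log2 change of 0.23 for homozygous against wild-type hearts, 0.15 for heterozygous against wild-type hearts and 0.08 for homozygous against heterozygous hearts. The share of TPM taken by mitochondrially encoded transcripts was 24.5% to 27.8% in wild-type, 23.2% to 27.0% in heterozygous and 22.3% to 27.8% in homozygous libraries. When the libraries were rescaled without mitochondrially encoded and haemoglobin genes, these medians were 0.19, 0.12 and 0.06. Member changes are also given relative to the median of all genes. The median member change was 0.07 in homozygous against wild-type hearts, which is −0.16 relative to all genes, with 3 members above the all-gene median and 6 below it. It was 0.14 in heterozygous against wild-type hearts (−0.01 relative to all genes) and −0.08 in homozygous against heterozygous hearts (−0.16 relative to all genes).

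Some libraries held transcripts of neighbouring organs. Summed thymocyte markers were 582 TPM in homozygous replicate 3 and 0.56 to 2.78 TPM elsewhere, summed liver markers were 4167 TPM in heterozygous replicate 1 and 30.7 to 170 TPM elsewhere, and summed lung markers were 274 TPM in wild-type replicate 1, then 61.8 in heterozygous replicate 1 and 6.22 to 15.3 in the other libraries. Cardiomyocyte markers summed to 34665 TPM in homozygous replicate 3 and 43145 to 50387 TPM in the others. Summed erythroid markers ran from 2857 to 15551 TPM, macrophage markers from 51.1 to 99.4 TPM and neuron markers from 3.36 to 9.92 TPM. *Xist*, transcribed in females, reached 111.91 to 146.42 TPM in all 3 heterozygous libraries, 87.84 in wild-type replicate 1 and 123.03 in homozygous replicate 1, and at most 0.05 in the remaining 4, so sex and genotype were not balanced. *Ctcf* itself averaged 30.1 ± 3.77 TPM across the wild-type (SD, n = 3), 35.2 ± 3.01 across the heterozygous and 43.5 ± 5.95 across the homozygous hearts (limma adjusted p = 0.107 for homozygous against wild type), a level that does not check a missense allele. In whole hearts, fewer cells of a type and less RNA per cell cannot be told apart.

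Ordered by mean TPM over the 9 libraries, *Atf4* stood first with 76.9 TPM, followed by *Shmt2* with 55.6, *Psat1* with 25.8, *Ddit3* with 24.8, *Atf5* with 20.8, *Phgdh* with 13.6, *Asns* with 5.73, *Trib3* with 1.75, *Gdf15* with 1.65 and *Chac1* with 0.284 TPM. The library ranges were separate between *Shmt2* and *Psat1*, *Phgdh* and *Asns*, *Asns* and *Trib3*, and *Gdf15* and *Chac1*. The other neighbours overlapped, and *Psat1* exceeded *Ddit3* in 6 of 9 libraries, as *Trib3* exceeded *Gdf15*. The transcription factors and the serine and glycine enzymes lay between 9.34 and 87.26 TPM in every library, and *Trib3* and *Gdf15* between 0.94 and 2.94 TPM.

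**Figure D1:**
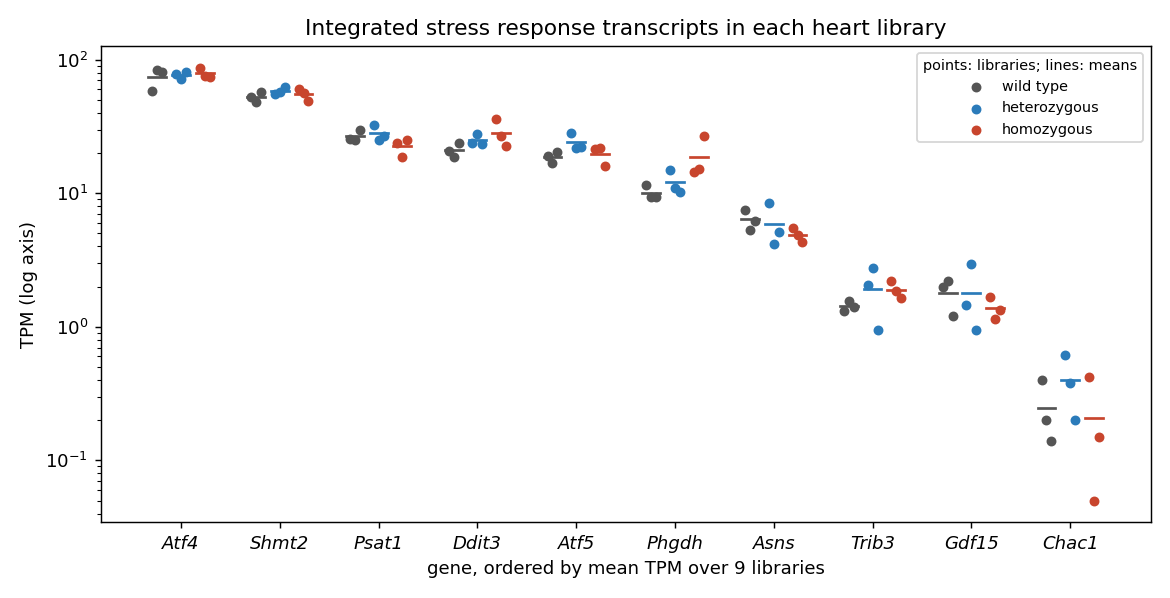
TPM of the 10 genes in each library on a log axis, with genes ordered by mean TPM, colours for the 3 genotypes, 1 point per library and a line at each genotype mean. The genotypes overlap for most genes, *Phgdh* is highest in homozygous replicate 3 at 26.77 TPM, and *Chac1* lies under 1 TPM in all 9 libraries.

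The transcription factors came first. *Atf4* (chr15:80255184-80257541, plus strand, GRCm38), the central factor of the response, measured 58.02, 84.04 and 81.15 TPM across the wild-type hearts, 77.88, 71.87 and 81.37 across the heterozygous and 87.26, 76.12 and 74.71 across the homozygous hearts. The lowest value was that of wild-type replicate 1, and the 3 genotypes overlapped. The log2 change was 0.11 in homozygous against wild-type hearts (95% interval −0.22 to 0.43, limma adjusted p = 0.640) and 0.07 in heterozygous against wild-type hearts (−0.26 to 0.39, limma adjusted p = 0.871). The first change was −0.14 after median-ratio scaling, so its direction depended on the scaling.

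*Atf5* (chr7:44812256-44816658, minus strand), a related factor that is translated under the same control and is linked to the mitochondrial unfolded protein response, measured 18.94, 16.77 and 20.37 TPM across the wild-type hearts, 28.06, 21.96 and 22.12 across the heterozygous and 21.45, 21.81 and 16.09 across the homozygous hearts. The 3 heterozygous values lay above all wild-type and all homozygous values. The log2 change was 0.34 in heterozygous against wild-type hearts (SE 0.15, limma adjusted p = 0.672, 0.20 relative to all genes) and −0.27 in homozygous against heterozygous hearts (SE 0.15, limma adjusted p = 0.767). The highest value belonged to the library with liver transcripts, heterozygous replicate 1, and without the 3 libraries that held transcripts of other organs these changes were 0.24 (limma adjusted p = 0.954) and −0.03 (limma adjusted p = 0.960). Homozygous and wild-type hearts differed by 0.07 (−0.27 to 0.41, limma adjusted p = 0.787), or −0.17 after median-ratio scaling. Exons of *Atf5* overlap those of *Nup62* and *Il4i1* on the other strand, and the use of strand in counting is not stated.

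*Ddit3* (chr10:127290774-127296288, plus strand) encodes CHOP, the factor tied to cell death under lasting stress. It measured 20.81, 18.80 and 23.70 TPM across the wild-type hearts, 23.60, 27.60 and 23.48 across the heterozygous and 35.90, 26.71 and 22.64 across the homozygous hearts. Homozygous replicates 1 and 2 lay above the wild-type range and replicate 3 lay within it. The log2 change in homozygous against wild-type hearts was 0.39 (0.02 to 0.77, limma adjusted p = 0.184), which is 0.16 relative to all genes. Without homozygous replicate 1 it was 0.22 (limma adjusted p = 0.444). The heterozygous change against wild type was 0.23 (limma adjusted p = 0.679) and the homozygous change against heterozygous was 0.16 (limma adjusted p = 0.851). *Ddit3* also shares exonic positions with *Mars*, on the other strand, and the symbol has 2 entries in the annotation.

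Among the feedback and effector genes, *Trib3* (chr2:152337422-152344032, minus strand), a pseudokinase that restrains ATF4 and CHOP, measured 1.32, 1.56 and 1.40 TPM across the wild-type hearts, 2.06, 2.78 and 0.95 across the heterozygous and 2.21, 1.85 and 1.64 across the homozygous hearts. All 3 homozygous values lay above the wild-type values, while the heterozygous values spanned both groups. The log2 change in homozygous against wild-type hearts was 0.25 (−0.33 to 0.84, limma adjusted p = 0.536), 0.02 relative to all genes. At this low level the added 1 TPM shrinks the change. With a pseudocount of 0.1 it was 0.38, where the median of all genes was 0.26. In the main fit the change was 0.22 in heterozygous against wild-type hearts (limma adjusted p = 0.769) and 0.03 in homozygous against heterozygous hearts (limma adjusted p = 0.987).

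*Gdf15* (chr8:70629393-70632456, minus strand), a secreted hormone used as a marker of mitochondrial disease, measured 1.98, 2.20 and 1.20 TPM across the wild-type hearts, 1.46, 2.94 and 0.94 across the heterozygous and 1.67, 1.14 and 1.33 across the homozygous hearts. The highest and lowest values both came from heterozygous libraries, and all groups overlapped. Its log2 change in homozygous against wild-type hearts was −0.22 (−0.87 to 0.43, limma adjusted p = 0.636), and in heterozygous against wild-type hearts −0.05 (−0.70 to 0.60, limma adjusted p = 0.956). Leaving out wild-type replicate 2 gave −0.11 for the first, and leaving out wild-type replicate 3 gave −0.38. The intervals of *Gdf15*, with those of *Trib3*, were the widest among the members, at levels near 2 TPM. At such levels the added 1 TPM also shrinks the changes of *Gdf15*.

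*Chac1* (chr2:119351229-119354381, plus strand), a glutathione-degrading enzyme with a matched promoter above, measured 0.40, 0.20 and 0.14 TPM across the wild-type hearts, 0.62, 0.38 and 0.20 across the heterozygous and 0.42, 0.05 and 0.15 across the homozygous hearts. It did not reach the mean of 1 TPM needed for the test. Without a filter on low values, its log2 change was −0.05 in homozygous against wild-type hearts (−0.40 to 0.29, limma adjusted p = 0.891) and 0.16 in heterozygous against wild-type hearts (−0.18 to 0.51, limma adjusted p = 0.826). The genotype means were 0.247 TPM for wild-type, 0.4 for heterozygous and 0.207 for homozygous hearts. All lie below the added 1 TPM, which shrinks such changes and their intervals, so these values do not show that *Chac1* was unchanged.

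The amino acid enzymes did not share a direction. *Asns* (chr6:7675169-7693254, minus strand), which makes asparagine and carries a match to the element in its promoter, measured 7.53, 5.31 and 6.24 TPM across the wild-type hearts, 8.46, 4.16 and 5.17 across the heterozygous and 5.51, 4.87 and 4.28 across the homozygous hearts. The highest value came from the heterozygous library with liver transcripts and the next from the wild-type library with lung transcripts. The log2 change in homozygous against wild-type hearts was −0.32 (−0.82 to 0.18, limma adjusted p = 0.374), −0.55 relative to all genes, and it was −0.20 without wild-type replicate 1 and −0.13 without the 3 libraries that held transcripts of other organs.

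Serine is made from a glycolytic intermediate in turn by PHGDH, PSAT1 and PSPH, and SHMT2 turns serine into glycine in mitochondria. *Phgdh* (chr3:98313170-98339990, minus strand), the first enzyme, measured 11.55, 9.34 and 9.38 TPM across the wild-type hearts, 14.81, 11.02 and 10.30 across the heterozygous and 14.40, 15.07 and 26.77 across the homozygous hearts. All 3 homozygous values lay above the wild-type values, and homozygous replicate 3, the library with thymocyte transcripts, stood highest. Its log2 change in homozygous against wild-type hearts was the highest among the members, at 0.78 (0.28 to 1.29, limma adjusted p = 0.115), or 0.55 relative to all genes. Without homozygous replicate 3 it was 0.51 (limma adjusted p = 0.105), and without all 3 libraries with transcripts of other organs 0.60 (limma adjusted p = 0.184). The homozygous change against heterozygous hearts was 0.56 (0.06 to 1.06, limma adjusted p = 0.682), and the heterozygous change against wild type was 0.22 (limma adjusted p = 0.736). Of its 31-base words, 55.8% occur in 23 other annotated genes, 22 of them pseudogenes. The 2 of these that are listed in the table summed to at most 0.16 TPM in a library.

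*Psat1* (chr19:15904678-15947337, minus strand), the second enzyme, measured 25.57, 25.11 and 29.79 TPM across the wild-type hearts, 32.28, 25.07 and 26.77 across the heterozygous and 23.67, 18.64 and 25.06 across the homozygous hearts. The homozygous values lay below those of both other genotypes, with 25.06 TPM in homozygous replicate 3 next to 25.07 and 25.11 TPM in the lowest heterozygous and wild-type libraries. The log2 change was −0.25 in homozygous against wild-type hearts (−0.58 to 0.08, limma adjusted p = 0.292), −0.48 relative to all genes, and −0.31 in homozygous against heterozygous hearts (−0.64 to 0.02, limma adjusted p = 0.721). Without homozygous replicate 2 these changes were −0.13 (limma adjusted p = 0.664) and −0.19 (limma adjusted p = 0.935).

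*Psph*, the third enzyme, is not among the 10 genes and is named after its values were seen. It measured 8.46, 9.98 and 9.57 TPM across the wild-type hearts, 7.76, 9.83 and 8.87 across the heterozygous and 9.41, 11.69 and 11.27 across the homozygous hearts, with a log2 change of 0.19 in homozygous against wild-type hearts (limma adjusted p = 0.398). *Shmt2* (chr10:127517123-127522444, minus strand) measured 52.75, 48.49 and 57.62 TPM across the wild-type hearts, 55.55, 57.38 and 62.24 across the heterozygous and 60.39, 56.70 and 49.00 across the homozygous hearts. Its groups overlapped, with a log2 change of 0.06 in homozygous against wild-type hearts (−0.20 to 0.32, limma adjusted p = 0.749). That change was −0.19 after median-ratio scaling. *Shmt2* had the narrowest interval of the 9 members. Its exons overlap those of *Ndufa4l2* on the other strand, with the same limit on strand as for *Atf5*.

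**Figure D2:**
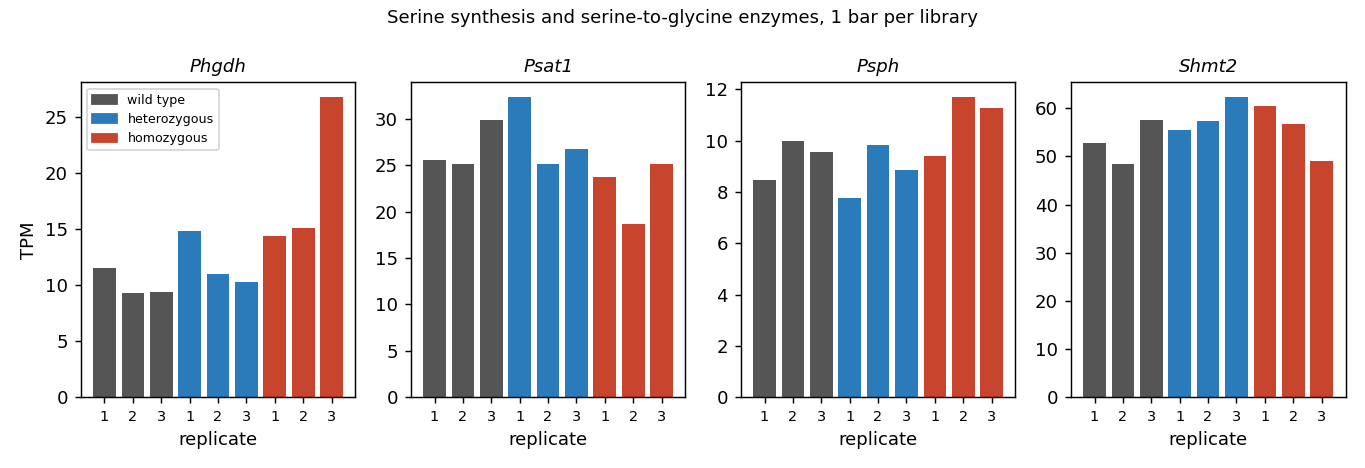
TPM of *Phgdh*, *Psat1*, *Psph* and *Shmt2* in each library, 1 bar per library from 0, coloured by genotype and with a separate scale per gene. *Phgdh* is higher in all 3 homozygous than in all 3 wild-type libraries while *Psat1* is lower, with 25.06 against 25.11 TPM at the nearest pair.

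Counted over the members, 3 of 9 did not overlap between homozygous and wild-type hearts, *Phgdh* and *Trib3* with homozygous values higher and *Psat1* with homozygous values lower, where 24.7% of all genes tested did not overlap. In heterozygous against wild-type hearts 1 of 9 did not overlap, *Atf5*, against 13.8% of all genes. In homozygous against heterozygous hearts 2 of 9 did not overlap, *Atf5* and *Psat1*, both with homozygous values lower, against 15.9% of all genes. With 9 members these shares can change only in steps of 1 gene.

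**Figure D3:**
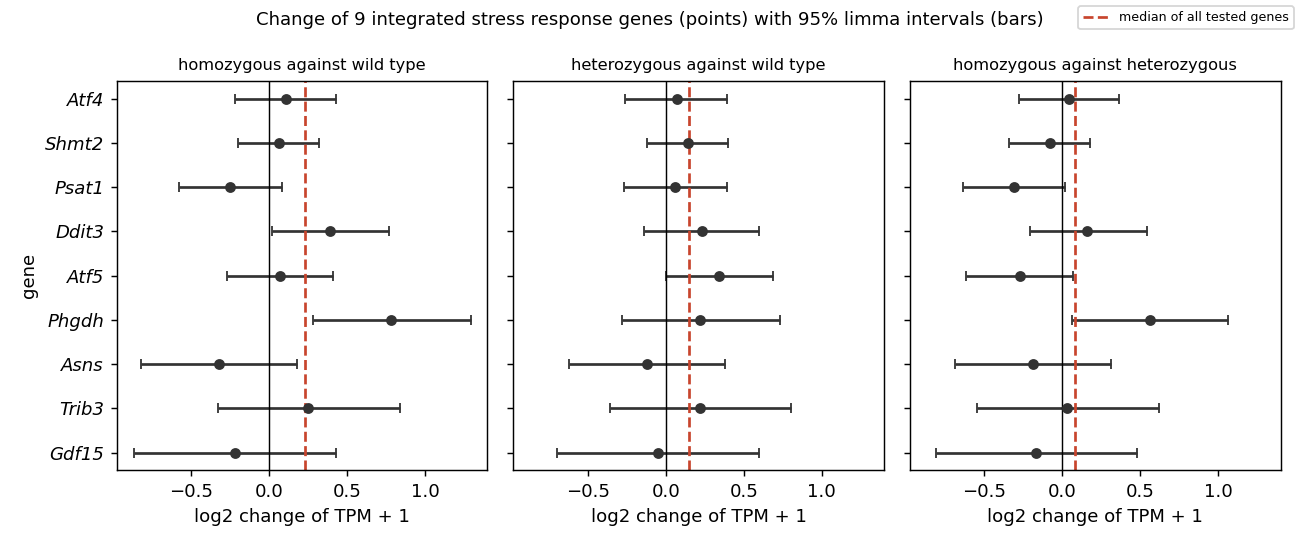
Change on the log2(TPM + 1) scale of the 9 tested genes in the 3 comparisons, with points for estimates, bars for 95% limma intervals and a dashed line at the median of all tested genes. The intervals of *Phgdh* and *Ddit3* lie above 0 in homozygous against wild-type hearts, at 0.28 to 1.29 and 0.02 to 0.77, and the other intervals in that panel include 0.

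Libraries of the same genotype differed among themselves. The number of the 10 genes above their own mean over the 9 libraries, on the log2(TPM + 1) scale, was 4, 2 and 4 in wild-type, 8, 6 and 4 in heterozygous and 8, 5 and 1 in homozygous replicates 1, 2 and 3. Heterozygous replicate 1 and homozygous replicate 1 stood highest with 8, and homozygous replicate 3 had *Phgdh* alone above its mean. Summed over the 10 genes, levels came to 199, 212 and 231 TPM across the wild-type, 245, 225 and 234 across the heterozygous and 253, 223 and 222 across the homozygous hearts, a sum that *Atf4* and *Shmt2* dominate.

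**Figure D4:**
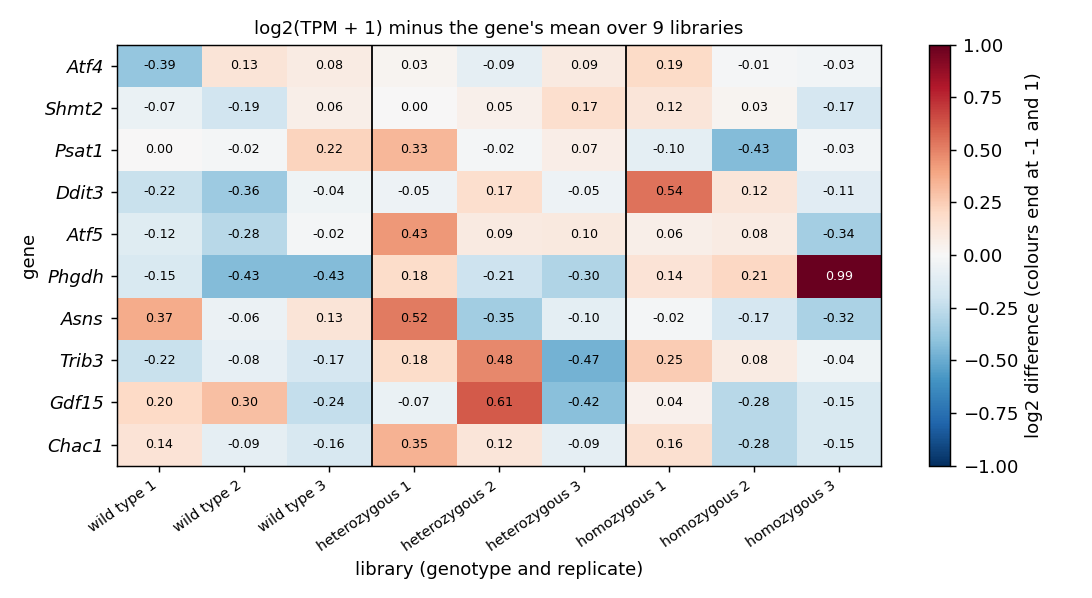
Each gene's log2(TPM + 1) minus its mean over the 9 libraries, with libraries in columns, genes in rows ordered by mean TPM, and colours that end at −1 and 1. The highest cell is *Phgdh* in homozygous replicate 3 at 0.99, in a column where the other 9 genes are at −0.03 or below.

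For *Atf4*, *Trib3*, *Asns* and *Psat1*, the 3 genes with the most similar pattern over the 9 libraries were taken by Pearson's r of log2(TPM + 1) among genes averaging 5 TPM or more. For *Atf4* they were *Tomm40l* (r = 0.983), *Rnf139* (0.939) and *Lig1* (0.938), and for *Trib3* they were *Dixdc1* (0.890), *Mllt3* (0.864) and *Mxi1* (0.814). For *Asns* they were *Myl6* (0.918), *Clec3b* (0.912) and *Adh1* (0.888), and for *Psat1* they were *Abracl* (0.927), *Bdh1* (0.903) and *Gmnn* (0.899). Each r rests on 9 libraries that also differ in their content of other organs, and the part of this in r was not tested. The 3 genes given for each member had the highest r among 9951 genes compared (9952 for *Trib3*).

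Outside the 10 genes, 11 lists of the wider pathway held 138 genes, of which 131 were tested and 0 were called in any of the 3 comparisons. At an unadjusted limma p under 0.05, 21 passed in homozygous against wild-type hearts (14 higher and 7 lower), 8 in heterozygous against wild-type hearts (6 higher and 2 lower) and 7 in homozygous against heterozygous hearts (4 higher and 3 lower). These were 16%, 6.11% and 5.34% of the list genes, where 25%, 6.87% and 7.15% of all genes tested passed. The lowest limma adjusted p was 0.0642 in the first comparison, for *Eif2b2*, then 0.672 and 0.466. Relative to all genes, list medians in homozygous against wild-type hearts lay between −0.20 and 0.11, with amino acid transporters at 0.11, other stress effectors at 0.01, oxidant response genes and p53 targets at −0.07, amino acid and one-carbon enzymes and tRNA synthetases at −0.10, endoplasmic reticulum genes at −0.13, the mitochondrial relay at −0.16 and the bZIP partners at −0.17. From each list the genes with the highest and the lowest homozygous change are named.

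Upstream of ATF4, the median change of 13 genes for the eIF2 kinases, eIF2 subunits, phosphatase subunits and the exchange factor eIF2B was −0.11 relative to all genes in homozygous against wild-type hearts. *Eif2b2*, the beta subunit of eIF2B, measured 38.09, 26.51 and 29.95 TPM across the wild-type hearts, 59.46, 42.72 and 41.13 across the heterozygous and 55.2, 77.04 and 58.94 across the homozygous hearts. Both mutant groups lay above all wild-type values, with log2 changes of 0.99 (0.58 to 1.41, limma adjusted p = 0.0642) for homozygous and 0.58 (limma adjusted p = 0.672) for heterozygous hearts. With a filter at a mean of 5 TPM the first adjusted p was 0.0495, and with 1 library left out it ranged from 0.0301 (without wild-type replicate 3) to 0.299 (without wild-type replicate 2). *Ppp1r15a*, the inducible phosphatase subunit GADD34 that reverses eIF2 phosphorylation, measured 22.78, 25.97 and 10.71 TPM across the wild-type hearts, 14.58, 12.26 and 13.44 across the heterozygous and 11.21, 12.11 and 9.65 across the homozygous hearts. Its log2 change of −0.71 in homozygous hearts (limma adjusted p = 0.148) went with high values in wild-type replicates 1 and 2, and without wild-type replicate 3 it was −1.08 (limma adjusted p = 0.0127). It was −0.48 without wild-type replicate 2 (limma adjusted p = 0.405).

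None of the 4 genes of the mitochondrial relay was called. *Oma1*, the protease, had the highest homozygous change against wild type at 0.20 (−0.26 to 0.67, limma adjusted p = 0.530), and *Opa1*, the inner-membrane fusion protein that OMA1 also cleaves, the lowest at 0.02 (−0.32 to 0.36, limma adjusted p = 0.933). After median-ratio scaling these were −0.03 and −0.22. Among 14 mitochondrial chaperones and proteases, 0 lay above and 14 below the all-gene median in homozygous against wild-type hearts, with a list median of −0.20 relative to all genes and of 0.03 as fitted. *Yme1l1*, an inner-membrane protease, was highest at 0.20 (limma adjusted p = 0.313), or −0.04 after median-ratio scaling. *Hspe1*, the mitochondrial chaperonin HSP10, was lowest at −0.28 (−0.51 to −0.04, limma adjusted p = 0.154), with TPM of 249.27, 250.97 and 235.68 across the wild-type hearts, 233.99, 217.44 and 225.25 across the heterozygous and 214.09, 175.08 and 221.12 across the homozygous hearts. For *Hspe1* the wild-type values lay above those of both mutant genotypes.

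Among partner factors of the bZIP class, *Cebpg*, which pairs with ATF4, had the highest homozygous change at 0.47 (limma adjusted p = 0.216). It was 0.71 without wild-type replicate 3 (limma adjusted p = 0.0401) and 0.25 without wild-type replicate 2 (limma adjusted p = 0.539). *Atf3*, an immediate-early and stress factor, had the lowest at −2.67 (−4.29 to −1.04, limma adjusted p = 0.110). *Atf3* measured 108.89, 100.69 and 9.74 TPM across the wild-type hearts, 16.27, 6.66 and 8.84 across the heterozygous and 8.79, 5.26 and 6.65 across the homozygous hearts. Wild-type replicates 1 and 2 stood apart from all other libraries, and without wild-type replicate 3 the change was −3.77 (limma adjusted p = 0.00319). Leaving out wild-type replicate 1 gave −2.09 (limma adjusted p = 0.309), and leaving out wild-type replicate 2 gave −2.14 (limma adjusted p = 0.340). *Btg2*, an immediate-early p53 target, was high in the same libraries, with 62.38, 66.52 and 16.23 TPM in wild-type hearts and 15.11 to 29.77 TPM in the others, and its change was −1.02 (limma adjusted p = 0.194), or −1.67 without wild-type replicate 3 (limma adjusted p = 0.019) and −0.68 without wild-type replicate 2 (limma adjusted p = 0.482).

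Downstream, *Mthfd2*, the mitochondrial one-carbon enzyme known to follow ATF4, was the lowest of 13 amino acid and one-carbon enzymes. It measured 11.63, 11.61 and 11.81 TPM across the wild-type hearts, 11.70, 11.47 and 11.03 across the heterozygous and 8.61, 7.83 and 8.08 across the homozygous hearts. The homozygous values lay below all 6 others, with a log2 change of −0.47 against wild type (−0.72 to −0.22, limma adjusted p = 0.097) and −0.44 against heterozygous hearts (limma adjusted p = 0.466). After median-ratio scaling the first change was −0.70 (limma adjusted p = 0.0219), without wild-type replicate 3 it was −0.46 (limma adjusted p = 0.0323), and its adjusted p ranged from 0.0119 to 0.335 over the 19 alternatives. *Aldh1l2*, the mitochondrial formyltetrahydrofolate dehydrogenase, was highest in that list at 0.42 (limma adjusted p = 0.200).

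Of 9 amino acid transporters, *Slc43a1* had the highest change at 0.73 (limma adjusted p = 0.137). It was at 7.12 TPM in homozygous replicate 3, the library with thymocyte transcripts, and at 2.07 to 4.24 TPM elsewhere. The other homozygous values, 3.44 and 3.34 TPM, lay above the wild-type values and within the heterozygous range. *Slc38a2*, which imports small neutral amino acids and is a known ATF4 target, was lowest at −0.25 (limma adjusted p = 0.198), with TPM of 135.03, 153.25 and 152.19 across the wild-type hearts, 135.24, 166.1 and 159.43 across the heterozygous and 133.22, 123.32 and 112.76 across the homozygous hearts. Of 20 cytosolic tRNA synthetases, which charge tRNAs with amino acids, 3 lay above and 17 below the all-gene median. *Vars* was highest at 0.41 (limma adjusted p = 0.154) and *Yars* lowest at −0.18 (limma adjusted p = 0.482).

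Among 10 other stress effectors, *Ddit4*, also called REDD1, an inhibitor of mTORC1, was highest. It measured 20.43, 24.84 and 18.45 TPM across the wild-type hearts, 25.46, 30.66 and 26.93 across the heterozygous and 34.28, 39.05 and 31.34 across the homozygous hearts, so that the 3 genotypes did not overlap. The log2 change was 0.69 in homozygous (0.38 to 1.01, limma adjusted p = 0.0764) and 0.37 in heterozygous hearts against wild type (limma adjusted p = 0.672), and the former was 0.77 without homozygous replicate 3 (limma adjusted p = 0.0475) and 0.60 without wild-type replicate 3 (limma adjusted p = 0.0318). With other libraries left out its adjusted p was up to 0.239, without wild-type replicate 1. *Vldlr*, a lipoprotein receptor, was lowest at −0.19 (limma adjusted p = 0.470).

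Endoplasmic reticulum, oxidant and p53 lists were set beside these because CHOP and *Trib3* can respond to such stress as well. Of 18 endoplasmic reticulum chaperones and sensors, *Edem1* was highest at 0.79 (limma adjusted p = 0.245) with 34.39 TPM in homozygous replicate 3 and 7.11 to 12.52 TPM elsewhere, and *Manf* was lowest at −0.08 (limma adjusted p = 0.758). Without the 3 libraries with transcripts of other organs the *Edem1* change was 0.13. Of 11 oxidant response genes, catalase (*Cat*) was highest at 0.46 (limma adjusted p = 0.153), or 0.60 without wild-type replicate 3 (limma adjusted p = 0.0495) and 0.39 without wild-type replicate 1 (limma adjusted p = 0.390), and *Sod2* lowest at −0.04 (limma adjusted p = 0.886). Of 12 p53 targets, *Trp53inp1* was highest at 1.20 (limma adjusted p = 0.124) with 26.84 TPM in homozygous replicate 3 and 3.92 to 9.88 TPM elsewhere, and 0.55 without those 3 libraries.

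**Figure D5:**
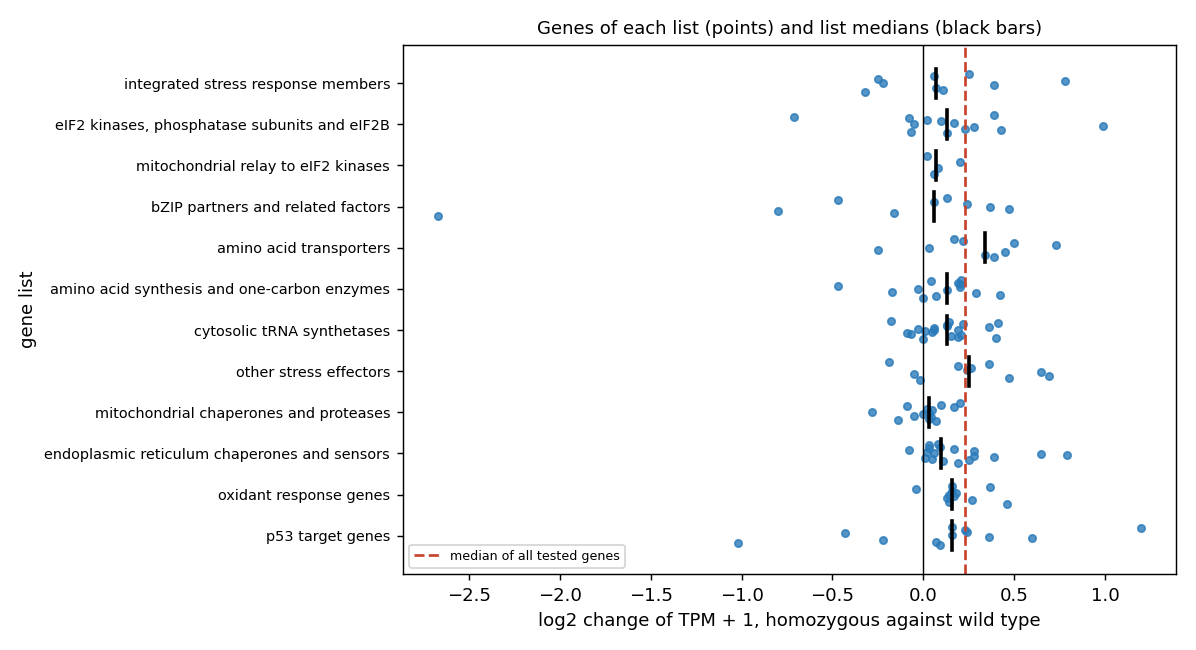
Change in homozygous against wild-type hearts on the log2(TPM + 1) scale for each tested gene of the 12 lists (points), with black bars at list medians and a dashed line at the median of all tested genes, 0.23. The members' median is 0.07, the mitochondrial chaperones and proteases all lie left of the dashed line, and the leftmost point is *Atf3* at −2.67.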

How the data were processed

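Polyadenylated RNA from 9 hearts was sequenced. The authors trimmed reads with Trim Galore, aligned them to mm10 with STAR and estimated gene abundance with RSEM, and deposited TPM, which is scaled to a common total per library (999100 to 999245) and keeps no depth, so counting error is unknown. The annotation release is not given in the sources used here. Of 24597 symbols, 26 turned into dates were left out.

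Libraries were grouped by genotype from their labels. The 13682 genes averaging 1 TPM or more were fitted as log2(TPM + 1) with limma 3.58.1 (lmFit, contrasts.fit, eBayes with trend) in R 4.3.3, all 9 libraries and 3 genotypes in 1 fit without covariates, since the count-based DESeq2 used by the study could not be run on TPM. P-values were two-sided and Benjamini-Hochberg adjusted over all genes tested. Overlap means that the ranges of 2 groups' libraries share values. The script was tested on simulated data. Gene positions, overlaps and shared 31-base words came from GENCODE on GRCm38, and promoters from RefSeq.

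The members, the 11 pathway lists, the marker lists and the alternatives were chosen with earlier results of these data known. All members were named, as were the highest and lowest gene of each list by homozygous change against wild type, any called list gene, *Ctcf*, and the 3 genes most alike to each of 4 members. The 19 alternatives were other pseudocounts (0.1 and 5), filters and scalings, sample weights by limma's gene-by-gene method, *Xist* as a covariate, a replicate block and leaving out libraries.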

Additional observations from a re-analysis of the deposited data

How the results depend on the processing

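Over 19 alternatives, 507 member changes were recomputed: 470 kept their direction and side of the threshold, 35 turned direction and 2 passed the threshold. Those 2 arose with sample weights in homozygous against wild-type hearts. There 2 of 9 members were called, *Ddit3* (0.65, limma adjusted p = 0.0132) and *Phgdh* (0.58, limma adjusted p = 0.0305), beside 5068 of 13682 genes in all. The 2 calls are therefore not particular to the members. Under the other alternatives 0 members were called in any comparison, and the cause of the difference was not tested. The *Phgdh* change in homozygous against wild-type hearts ranged from 0.51 to 0.94 and that of *Ddit3* from 0.15 to 0.65.

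Genes called in homozygous against wild-type hearts were 46 (26 higher), and 240 (39 higher) with median-ratio scaling, where the median of all genes was 0.01 and not 0.23. They were 22 without a filter, 77 when rescaled without mitochondrially encoded and haemoglobin genes, 17 with a replicate block, 11 without the 3 libraries with transcripts of other organs, and 13 to 2170 with 1 library left out, the latter without wild-type replicate 3, and 247 without homozygous replicate 3. In heterozygous against wild-type hearts, 2 genes became 1 with a pseudocount of 0.1, a mean of at least 5 TPM, *Xist* or the block, 4 with weights, 5 with median-ratio scaling or without those 3 libraries, and 1 to 6 with 1 left out. In homozygous against heterozygous hearts, 6 became 2 with a pseudocount of 5 or no filter, 13 with median-ratio scaling, 10 when rescaled, 43 with weights, 0 with *Xist*, 1 with the block and 1 to 6 with 1 left out. Whether replicate numbers mark pairs of libraries is not stated. Same-number correlations of deviations ran from −0.0306 to 0.359, and different-number ones from −0.314 to 0.121. The highest were between wild-type and heterozygous libraries, at 0.359 for replicate 1 and 0.297 for replicate 3. Wild-type and heterozygous replicate 1 also had the highest summed lung markers, at 274 and 61.8 TPM. The part of lung transcripts in their correlation was not tested. The block called 0 members, as did the main fit, so this count cannot show whether libraries were paired.

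The direction turned for these log2 changes. Against wild type, homozygous values after median-ratio scaling were −0.14 for *Atf4*, −0.17 for *Atf5*, −0.19 for *Shmt2*, −0.03 for *Oma1*, −0.22 for *Opa1* and −0.04 for *Yme1l1*; rescaled, *Opa1* was −0.03; with weights, *Manf* was 0.08 and *Sod2* 0.11; without the 3 libraries, *Atf4* was −0.02, *Oma1* −0.12, and *Manf* and *Sod2* 0. Heterozygous values against wild type after median-ratio scaling were −0.10 for *Atf4*, −0.10 for *Psat1* and −0.02 for *Shmt2*, 0.03 for *Asns* with weights, and −0.11 for *Atf4*, 0.06 for *Gdf15* and −0.08 for *Psat1* without the 3 libraries. Homozygous values against heterozygous were −0.04 for *Atf4* and −0.03 for *Trib3* after median-ratio scaling, 0.01 for *Shmt2* with weights, −0.05 for *Atf4* with *Xist*, and 0.13 for *Asns* without the 3 libraries.

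With 1 library left out, homozygous changes against wild type ranged from −0.06 to 0.20 for *Atf4*, 0 to 0.20 for *Atf5*, 0 to 0.15 for *Shmt2*, −0.10 to 0.16 for *Opa1*, −0.26 to 0.02 for *Manf* and −0.14 to 0.10 for *Sod2*. Heterozygous changes ranged from −0.37 to 0.06 for *Asns*, −0.10 to 0.16 for *Atf4*, −0.34 to 0.17 for *Gdf15* and −0.04 to 0.13 for *Psat1*. Homozygous changes against heterozygous ranged from −0.38 to 0.06 for *Asns*, −0.03 to 0.08 for *Atf4*, −0.01 to 0.31 for *Ddit3*, −0.39 to 0.12 for *Gdf15*, −0.14 to 0 for *Shmt2* and −0.23 to 0.24 for *Trib3*. TPM keeps no depth, so the spread between 3 libraries limits each value, and at a median standard error of 0.18 small changes were not detectable.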

Other observations

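Of the 138 pathway genes, 7 stayed under a mean of 1 TPM and were not tested. *Fgf21*, a secreted hormone induced by mitochondrial and nutrient stress, was at 4.24 TPM in homozygous replicate 3 and listed at 0 in the other 8 libraries. *Slc7a11*, the cystine-glutamate exchanger, was at 2.32 TPM in the same library and at most 0.08 TPM elsewhere. That library also held summed thymocyte markers of 582 TPM and summed thymic epithelium markers of 439 TPM, against 99 to 132 TPM in the others. In the others *Ctsl* made up most of the latter sum, at 94.33 to 125.91 TPM, against 216.94 TPM in homozygous replicate 3. *Prss16*, of the same list, was at 129.92 TPM in homozygous replicate 3 and at most 0.11 TPM elsewhere. *Trib3*, *Gdf15* and *Atf4* were at 1.64, 1.33 and 74.71 TPM in homozygous replicate 3. *Cbs* and *Cth*, the transsulfuration enzymes that lead from homocysteine to cysteine, were highest in heterozygous replicate 1, at 3.09 and 2.86 TPM, the library with 4167 TPM of summed liver markers. The part of other organs in these values was not tested.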
